A study of Drosophila simulans x Drosophila sechellia and Drosophila simulans x Drosophila mauritiana and Drosophila mauritiana x Drosophila simulans with 63 samples.

Results

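Female (XX) and male (XY) embryos of the cross sec x mau were compared at the end of the blastoderm stage, late stage 5, when the genome of the embryo itself is active. The comparison held 6 single-embryo libraries of the 63 in the series, 3 XX embryos (replicates 4, 5 and 6) and 3 XY embryos (replicates 1, 2 and 3), chosen by the sex and the cross given in their labels. Of 10555 orthologous genes in the table of this species pair, 5431 had a mean total of at least 10 over the 6 embryos and were tested, 848 of 1610 on the X and 4583 of 8945 on the autosomes. The total of a gene is the sum of its D. sechellia (sec) and D. mauritiana (mau) allele values, in reads at variant sites after upper quantile scaling, called scaled reads here.

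The study crossed D. simulans, D. sechellia and D. mauritiana in pairs to follow how gene expression is regulated before and after the zygotic genome is switched on. In sec x mau the mothers were wild-type D. sechellia and the fathers D. mauritiana of a line carrying the white allele w1. The XX embryos therefore carried 1 sec X and 1 mau X, and the XY embryos 1 sec X and a Y of D. mauritiana, while both had 1 set of autosomes of each species and an egg made by a D. sechellia mother. All 6 were untreated F1 hybrids, sexed by the authors with a PCR for Y-linked genes on DNA from the same embryo. In a total, sex and possession of a mau allele of an X-linked gene cannot be told apart. The sec allele alone sets 1 X copy in XX embryos against 1 X copy in XY embryos.

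In Drosophila melanogaster, the number of X chromosomes is read early in the blastoderm. X-linked signal elements such as sisA, sc and run activate an early promoter of Sex-lethal (Sxl) in XX embryos only, and the Sxl protein then directs female splicing and represses translation of msl-2. In XY embryos Msl-2 protein joins Msl-1, Msl-3, Mle and Mof in a complex that raises transcription of the single X. At the blastoderm stage this dosage compensation is not yet complete, and RNA laid down by the mother is still present for many genes.

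The libraries held 2955467 to 5028528 reads at variant sites. Reads of paternal origin on the X matched the labels of the 6 embryos: mau reads made up 21.5, 20.8 and 23.5% of X-linked reads in the XX embryos, against 4.17, 4.13 and 4.35% in the XY embryos. Of the mau reads on the X of XY embryos, 42.6% lay in RpL7A and 21.9% in RpS6, ribosomal protein genes at which D. sechellia embryos of the parental line also had 99.9 and 17.5% of reads assigned to mau. Without these 2 genes the share was 20.3, 19.2 and 22.2% in XX embryos and 1.61, 1.52 and 1.66% in XY embryos. Blastoderm markers were present in every library, with summed levels of 8 genes (eve, ftz, twi, sna, Kr, hb, zen and slam) of 14625 to 20824 scaled reads in XX embryos and 15431 to 16461 in XY embryos. Of 4 markers of gastrulation or later, 3 were in the table, Ubx was at 0 and the sum was 19.9 to 31.3 scaled reads in XX embryos and 18.3 to 36.9 in XY embryos. Markers of RNA left from the egg summed to 412 to 548 scaled reads over 5 genes in XX embryos, below the 574 to 681 in XY embryos, with bcd, osk and pgc at 2.05 to 23.0 scaled reads and nos and gcl making up most of the sum. The list of pole cell markers, 3 of 4 in the table, shares nos, gcl and pgc with it and gave 403 to 520 scaled reads in XX embryos and 555 to 659 in XY embryos. These sums differed in the same direction as the autosomal genes described next, and their part in any result was not tested. None of 8 Y-linked genes was in the table, so the Y was not measured. In the reciprocal cross mau x sec, 4 of 6 libraries did not match the sex in their label, and results that involve it stand apart at the end.

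Most genes called between the sexes were X-linked. By limma on log2(total + 1), two-sided with Benjamini-Hochberg adjustment over 5431 genes at 0.05, 6 X-linked genes were higher in XX embryos (0.708% of 848) and 1 was higher in XY embryos (0.118%), whereas 0 autosomal genes passed in either direction (0% of 4583). At an unadjusted p under 0.05, 278 X-linked genes were higher in XX and 28 higher in XY, beside 47 and 250 autosomal genes. After centring each embryo on the autosomal median, these 4 counts were 354, 17, 100 and 131. The excess of autosomal genes higher in XY thus depended on the scaling. edgeR's quasi-likelihood test on the recovered whole reads called more genes, 56 X-linked genes higher in XX (6.6%), 6 higher in XY (0.708%), 2 autosomal genes higher in XX (0.0436%) and 7 higher in XY (0.153%). Without any test, the 3 XX embryos lay above the 3 XY embryos at 306 X-linked genes (36.1%) and below them at 34 (4.01%). For autosomal genes the corresponding numbers were 106 (2.31%) and 449 (9.8%). The median log2 difference, XX minus XY, was 0.28 for X-linked and -0.09 for autosomal genes on the deposited scale, and X-linked genes are set against the autosomal median below where dosage is described. In bulk embryos, fewer cells expressing a gene and less RNA per cell cannot be told apart.

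Sxl, the master switch of sex determination, was the clearest regulator among the genes called. The table lists it as FBgn0043405 on scaffold 24 of the D. sechellia r1.3 assembly, with an annotated interval at 205846 to 205922. Its total was 1992, 2251 and 1923 scaled reads in the XX embryos, against 366, 502 and 412 in the XY embryos. Every XX embryo was far above every XY embryo. The difference was 2.27 ± 0.16 on the log2 scale (SE, limma adjusted p = 0.0026; edgeR adjusted p = 1.3e-05), or 4.84-fold, and it was 2.28 when reads were mapped to D. mauritiana instead. Leaving out each embryo in turn kept the call, with log2 differences of 2.17 to 2.40 for Sxl.

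The sec allele of Sxl differed as well, although both sexes carried 1 copy of it. In reads mapped to D. mauritiana, where 0 to 5.13 scaled reads were assigned to mau in XY embryos, the sec allele of Sxl had 1323, 1501 and 1393 scaled reads in XX embryos, against 579, 730 and 564 in XY embryos, a log2 difference of 1.18. The mau allele of Sxl had 1567, 1702 and 1632 scaled reads in the XX embryos in that direction. Both alleles gave many reads in XX embryos, and the difference in totals was not carried by the mau allele alone. In reads mapped to D. sechellia the log2 difference of the Sxl sec allele was 1.06, but there 112, 156 and 147 scaled reads were assigned to mau in XY embryos and 7.46% of reads in D. sechellia embryos, so the split between alleles was less exact. The reads count all splice forms and both Sxl promoters together.

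The X-linked elements that activate Sxl gave no such contrast. The totals of sisA, the earliest of them, were 1159, 1620 and 791 scaled reads in XX embryos and 913, 1465 and 1249 in XY embryos. These groups overlapped, and the log2 difference was -0.06 ± 0.29. The totals of run, a pair-rule gene and weak signal element, were 625, 687 and 559 scaled reads in XX embryos and 502, 478 and 573 in XY embryos, again overlapping, with a log2 difference of 0.27 ± 0.14 (limma adjusted p = 0.55). The proneural signal element sc had 14.0, 29.2 and 36.5 scaled reads in XX embryos and 11.2, 12.3 and 24.2 in XY embryos. Its difference of 0.69 ± 0.40 for sc had an adjusted p of 0.61 by limma. Of the 19 genes of the list of signal elements, cofactors and sex determination genes, 16 were in the table and 14 were tested. Sxl was the 1 member called higher in XX by limma, edgeR and DESeq2 alike, 0 were called higher in XY, and the median log2 difference over the list was 0.03, against -0.09 over the autosomal genes tested. The corepressor gro, the negative factors dpn and emc and the splicing cofactors snf, vir, fl(2)d and tra2 had log2 differences between -0.31 and 0.08. The downstream genes dsx and fru were listed at 0 in all 6 embryos, but with 0 variant sites. Their level was therefore not measured here, and the 0 does not show that they were silent. In sim x sec, dsx had 20.2 to 37.5 scaled reads and fru was at 0.

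Among the genes of dosage compensation, 0 of 8 tested were called by limma and 3 of 8 by edgeR, msl-2, msl-3 and mof, all lower in XX embryos. The totals of msl-2, the male-limiting subunit of the complex, listed on 2L, were 470, 359 and 439 scaled reads in XX embryos, against 1470, 2580 and 1392 in XY embryos. Every XY embryo was above every XX embryo, by 4.14-fold in geometric mean. The log2 difference of -2.05 ± 0.25 just missed the threshold by limma (adjusted p = 0.0501) and passed by edgeR (adjusted p = 0.0025), and in reads mapped to D. mauritiana it passed limma as well (adjusted p = 0.042). msl-2 was also mostly zygotic, its signal being 5.61 higher on the log2 scale at stage 5 than at stage 2 in embryos of the parental species.

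The other members of the complex did not pass in the main limma fit. With a limma trend, 3 of the 8 genes tested were called lower in XX, msl-3 among them (adjusted p = 0.019). The chromodomain subunit gene msl-3 had totals of 361, 270 and 314 scaled reads in XX embryos, against 536, 620 and 564 in XY embryos, which did not overlap (log2 difference -0.87 ± 0.15; limma adjusted p = 0.083, edgeR adjusted p = 0.022). mof, the X-linked histone H4 acetyltransferase gene, had 71.3, 61.4 and 90.0 scaled reads in XX embryos, against 148, 202 and 176 in XY embryos. XX embryos had less mof RNA although they had 1 more copy of the gene, with a log2 difference of -1.24 ± 0.19 (limma adjusted p = 0.074, edgeR adjusted p = 0.023). The scaffold subunit gene msl-1 had 769, 614 and 670 scaled reads in XX embryos and 898, 1329 and 943 in XY embryos. All XY embryos were above the XX embryos here too, but the difference of -0.61 ± 0.19 for msl-1 passed neither limma (adjusted p = 0.28) nor edgeR (adjusted p = 0.13).

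The helicase gene mle (0.01), the X-binding zinc finger gene Clamp (0.07), the H3 kinase gene JIL-1 (-0.31) and Pof (-0.33), whose product binds the fourth chromosome, had smaller log2 differences that overlapped between the sexes and passed no test. Over the list of 10 genes, 8 were in the table and tested. At an unadjusted limma p under 0.05 there were 4, all lower in XX, against 250 of 4583 autosomal genes on the deposited scale, and DESeq2 called 4. The median log2 difference was -0.47, and the 3 XX embryos lay below the 3 XY embryos at 4 of 8 genes, against 9.8% of autosomal genes. roX1 and roX2 were not analysed here.

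**Figure D1:**
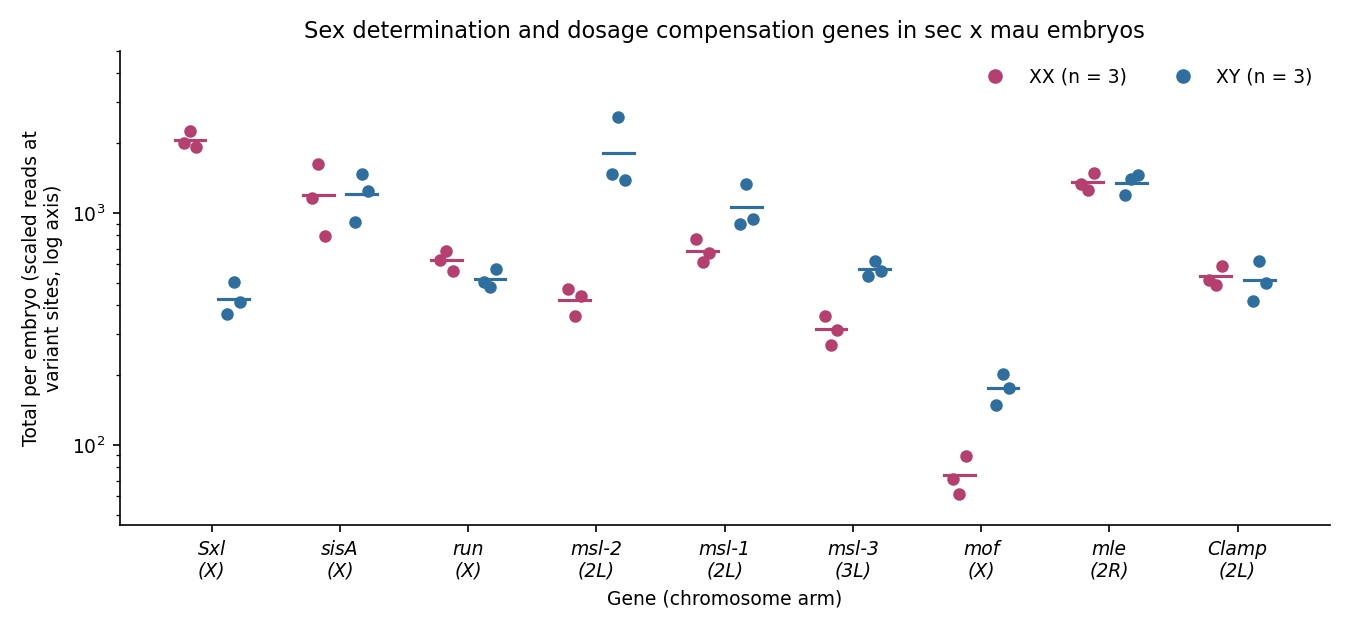
Totals per embryo of Sxl, sisA, run and 6 genes of the dosage compensation machinery, in scaled reads on a log axis, with XX embryos left and XY embryos right in each panel and a line at each group mean. Sxl lies at 1923 to 2251 in XX embryos and 366 to 502 in XY embryos, msl-2 at 359 to 470 and 1392 to 2580, and mle and Clamp overlap.

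X-linked genes as a group were at a higher level in each XX embryo than in any XY embryo, but by less than the number of X copies. For each embryo, the median deviation of X-linked genes from their mean over the 6 embryos was taken relative to that of autosomal genes. Over all 848 X-linked genes this gave 0.234, 0.156 and 0.182 on the log2 scale in XX embryos, against -0.201, -0.168 and -0.172 in XY embryos. The XX and XY values were well apart, and their means differed by 0.371, or 1.29-fold. From summed totals, in which genes with many reads weigh more, the difference was 0.212, or 1.16-fold. An exact permutation test over embryos gave p = 0.1, the smallest p that 3 against 3 allows. A difference of 1 on this scale would correspond to 2 copies against 1.

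The value differed between classes of genes, without following the rise from stage 2 to stage 5 in order. Genes whose signal was more than 8-fold higher at stage 5 than at stage 2 in the parental species, called mostly zygotic, were compared with autosomal genes of the same class, 62 on the X and 584 on the autosomes. They gave 0.297, 0.272 and 0.261 in XX embryos, against -0.281, -0.208 and -0.212 in XY embryos. The difference of 0.510 (1.42-fold, exact permutation p = 0.1, the smallest possible) depended on the class limit, being 0.372 for genes more than 4-fold higher and 0.588 for genes more than 16-fold higher. Genes that were no higher at stage 5 than at stage 2, called mainly maternal, gave a similar value. The name describes only how the 2 stages compare, and the paternal reads of these genes at stage 5 are given below. Their 407 X-linked members lay at 0.306, 0.199 and 0.252 in XX embryos, against -0.273, -0.181 and -0.259 in XY embryos, a difference of 0.490 (1.40-fold, exact permutation p = 0.1). The classes between them had smaller gaps, given as median log2 differences over genes. Genes raised up to 2-fold by stage 5 had medians of 0.30 on the X (168 genes) and -0.07 on the autosomes (903 genes), and genes raised 2- to 8-fold had 0.14 on the X (211 genes) and -0.06 on the autosomes (1338 genes). By the same measure mostly zygotic genes had 0.37 and -0.13, and mainly maternal genes 0.34 and -0.14.

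Reads of the paternal allele, which the egg of a D. sechellia mother does not supply, were present at mainly maternal genes too. At the median mainly maternal X-linked gene 32.4, 31.5 and 35.1% of reads were mau in XX embryos and 0% in XY embryos. On the autosomes the corresponding medians were 30.0, 31.1 and 33.3% in XX embryos and 33.5, 32.1 and 35.3% in XY embryos. At mostly zygotic X-linked genes the median mau share was 46.5, 46.6 and 45.6% in XX embryos and 0% in XY embryos, close to the 46.4 to 47.1% of mostly zygotic autosomal genes in all 6 embryos.

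Single genes were spread widely around these medians. Relative to the autosomal median, 19 of 62 mostly zygotic X-linked genes were more than 0.75 higher in XX embryos on the log2 scale, 27 were 0.25 to 0.75 higher, 12 lay within 0.25 and 4 were more than 0.25 lower. Among mostly zygotic autosomal genes 15, 106, 334 and 129 of 584 fell in these ranges. Of the mostly zygotic X-linked genes, 25 had all XX embryos above all XY embryos and 1 the reverse, against 15 and 55 on the autosomes. These counts describe the 6 embryos, and each X-linked gene in them shares the same X chromosomes and libraries.

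**Figure D2:**
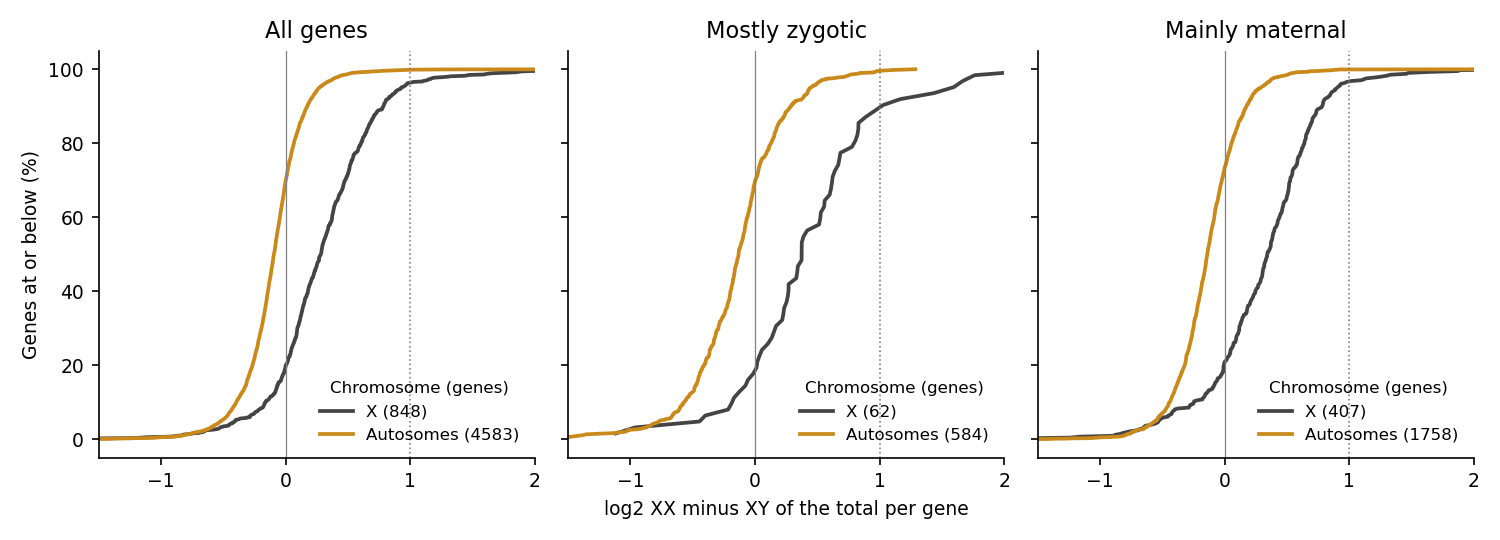
Cumulative percent of genes by log2 difference, XX minus XY, for X-linked and autosomal genes in panels for all genes tested, mostly zygotic and mainly maternal genes, with a dotted line at 1, the ratio of X copies. The X-linked curves lie right of the autosomal ones (medians 0.37 and -0.13 for mostly zygotic genes) and most of each curve is left of the dotted line.

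The sec allele alone went in the opposite direction to the totals. For mostly zygotic genes, the same per-embryo value computed from sec allele reads was -0.194, -0.141 and -0.165 in XX embryos, against 0.120, 0.157 and 0.199 in XY embryos. Thus the sec allele of these mostly zygotic X-linked genes gave less RNA in XX than in XY embryos, by a log2 difference of -0.325, or 0.798 of the XY level (exact permutation p = 0.1, the smallest possible). The value was -0.337 without the genes at which D. sechellia embryos had more than 5% of reads assigned to mau, an alternative chosen after seeing the data, and -0.197 for the wider class of genes more than 4-fold higher at stage 5. The sec allele was lower in XX embryos at 53 of 62 mostly zygotic X-linked genes, against 388 of 584 mostly zygotic autosomal genes, with median log2 differences of -0.48 and -0.12. The gap was smaller for other genes, with medians of -0.16 on the X and -0.06 on the autosomes over all genes. Mainly maternal genes had -0.21 and -0.11.

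**Figure D3:**
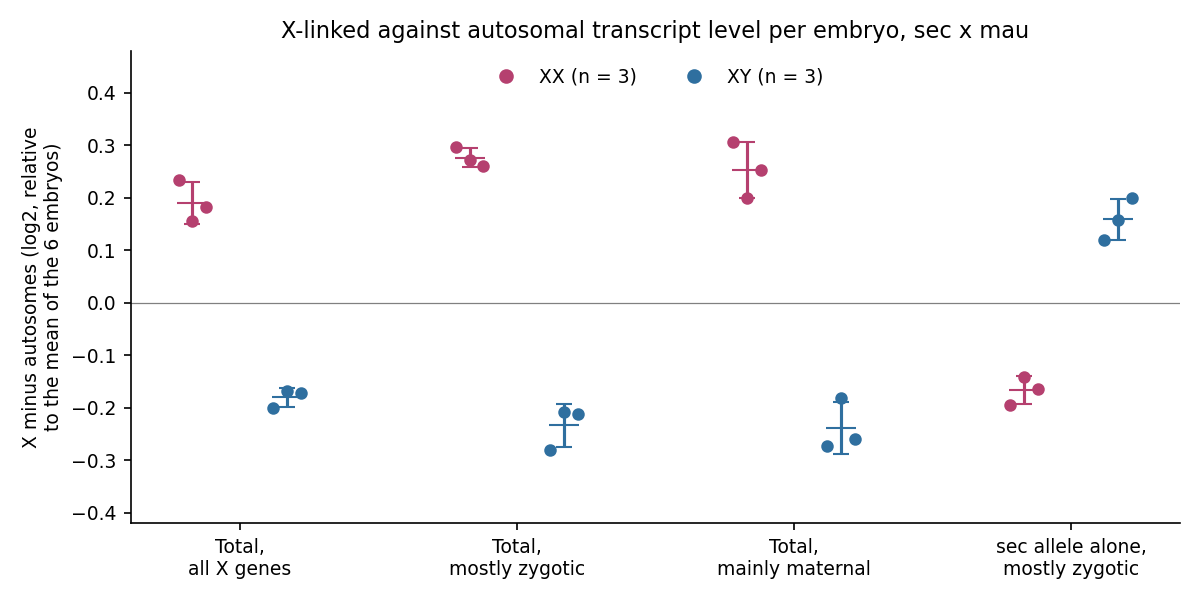
X-linked level relative to autosomes per embryo, on the log2 scale, for all genes, mostly zygotic genes, mainly maternal genes and the sec allele of mostly zygotic genes, with XX embryos left and XY embryos right, each dot an embryo and bars the mean ± SD (n = 3). XX embryos lie above XY embryos in the totals (0.261 to 0.297 against -0.281 to -0.208 for mostly zygotic genes) and below them for the sec allele.

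At some X-linked patterning genes the totals of the sexes overlapped. These examples were picked after their values were seen, and where totals are alike the sec allele difference restates the mau share in XX embryos. sog, which encodes the antagonist of the morphogen Dpp, had totals of 2272, 2774 and 2330 scaled reads in XX embryos and 2796, 2562 and 2409 in XY embryos. The totals overlapped (log2 difference -0.08 ± 0.14), and the sec allele of sog had 1219, 1415 and 1262 scaled reads in XX embryos, against 2793, 2555 and 2408 in XY embryos, a difference of -0.99. The gap gene gt had totals of 1042, 931 and 855 scaled reads in XX embryos and 1016, 960 and 1207 in XY embryos, overlapping, with a sec allele difference of -1.23. The repressor gene brk, which opposes Dpp targets, had totals of 849, 1063 and 1031 scaled reads in XX embryos and 909, 965 and 1036 in XY embryos. For brk the sec allele difference was -0.71, the mau allele supplying 322, 411 and 435 scaled reads in the XX embryos.

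brk was among the 4 mostly zygotic X-linked genes with the smallest log2 difference in totals, named by rule for that reason, so their small differences are no finding. The others were CG12177 (-0.02), the neuronal RNA-binding protein gene elav (0.02) and sisA (-0.06). With equal totals and almost no mau reads in XY embryos, a lower sec allele in XX embryos follows from the choice, and its log2 differences of -0.71 for brk, -0.51 for CG12177, -0.85 for elav and -1.0 for sisA are given as descriptions.

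At the other end were zygotic genes with unequal totals. bnb, a gene of the early embryo expressed in the blastoderm of D. melanogaster, had totals of 33456, 38538 and 33507 scaled reads in XX embryos, against 22062, 24396 and 26777 in XY embryos. Its embryos did not overlap, and the difference of 0.53 ± 0.14 for bnb passed by edgeR (adjusted p = 0.019) and not by limma (adjusted p = 0.20). Even so, the sec allele of bnb was lower in XX embryos by 0.50 on the log2 scale. The proneural genes l(1)sc (0.89 ± 0.29) and ac (0.67 ± 0.18) and tsg (0.51 ± 0.26), a modulator of Dpp signalling, had positive differences that passed neither test. The head gap genes btd (0.15) and oc (0.26), vnd (0.27) and disco (-0.45) passed neither test.

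Of the 20 genes in the list of X-linked patterning and cellularization genes, 18 were in the table and 15 were tested. limma called 1 of 15 higher in XX (Sxl) and edgeR 2 (Sxl and bnb), 0 were called higher in XY, and 11 of 15 differences were positive. Of all 848 X-linked genes tested, limma called 0.708% and edgeR 6.6% higher in XX, and 682 (80.4%) had positive differences. The median log2 difference of the list, 0.27, stood close to the 0.28 of all X-linked genes tested. In the list of autosomal patterning and cellularization genes, 20 of 23 were in the table and tested, and limma, edgeR and DESeq2 each called 0, with 0 at an unadjusted p under 0.05. Their median log2 difference was 0.01. The dorsal homeobox gene zen, at 510, 529 and 447 scaled reads in XX embryos and 412, 285 and 429 in XY embryos, was the 1 member whose XX embryos all lay above the XY embryos. The cellularization gene slam varied most within each sex, at 7928, 5182 and 2572 scaled reads in XX embryos and 4901, 1107 and 3871 in XY embryos, and its part in other differences was not tested.

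Of the X-linked genes called higher in XX other than Sxl, CG2889, mst, FucT6 and CG12096 had near-equal sec alleles in the sexes. CG8565 had too few sec reads to compare, at 0, 3.07 and 0 scaled reads in XX embryos and 0 in XY embryos. CG2889 had totals of 228, 264 and 222 scaled reads in XX embryos, against 54.8, 63.5 and 60.5 in XY embryos, without overlap (log2 difference 1.98 ± 0.13, limma adjusted p = 0.0026). Its sec allele had 48.9, 59.8 and 44.3 scaled reads in XX embryos and 53.8, 62.5 and 60.5 in XY embryos. The excess of CG2889 was therefore in mau reads, 179, 204 and 177 in the XX embryos. mst had totals of 141, 169 and 129 scaled reads in XX embryos, against 44.6, 46.1 and 48.4 in XY embryos (1.63 ± 0.14, limma adjusted p = 0.0095), with 85.3, 115 and 86.0 scaled reads of the mau allele in XX embryos.

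FucT6, which encodes an alpha-1,6-fucosyltransferase of N-glycans, stood near the ratio of gene copies. Its totals were 220, 221 and 223 scaled reads in XX embryos, against 99.4, 108 and 100.3 in XY embryos (1.10 ± 0.11, limma adjusted p = 0.024). The sec allele of FucT6 was at 99.3, 109 and 99.1 scaled reads in XX embryos and 99.4, 108 and 100.3 in XY embryos, and the groups overlapped. CG12096 was alike, with totals of 78.3, 90.5 and 92.6 scaled reads in XX embryos, against 36.5, 38.9 and 41.5 in XY embryos (1.14 ± 0.13, limma adjusted p = 0.034).

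CG8565 was detected in XX embryos only, at 14, 18 and 20 whole reads against 0, 0 and 0 in XY embryos. On the scaled values, and with a floor of 3 reads over the XY group, it was at least 20.6-fold higher in XX embryos (limma adjusted p = 4.8e-05). All but 1 of the 3 XX embryos had mau reads of CG8565 only, and in reads mapped to D. mauritiana the gene was at 0 in all 6 embryos, so the call rests on 1 mapping direction. The limma calls of Sxl, CG8565 and CG2889 held when each embryo was left out in turn. mst lost its call without XX replicate 4 (adjusted p = 0.066), XY replicate 1 (0.098) or XY replicate 3 (0.061), while FucT6, CG12096 and CG12112 lost theirs without any 1 of the 6 embryos, with adjusted p of 0.059 to 0.22 by limma.

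The wider group was more mixed. Over the 56 X-linked genes that edgeR called higher in XX, the sec allele had a median log2 difference of -0.16 and lay within 0.25 of equality at 37 of 56 genes, and the median mau share in XX embryos was 51.2%, over 60% at 14 of them. Over all 848 X-linked genes tested the median sec allele difference was likewise -0.16, with 469 of 848 within 0.25 of equality and 35 of 848 over 60% mau. Outside that range were genes such as CG2145, whose sec allele averaged 368 scaled reads in XX embryos and 507 in XY embryos. The rule that chose the 56 genes used totals, of which the alleles are parts, so these values are descriptions. At Rab18, a vesicle GTPase gene, the totals were 64.3, 47.6 and 73.0 scaled reads in XX embryos, against 13.2, 6.15 and 17.3 in XY embryos, and 89.4% of the XX reads were mau. CG34015 had totals of 36.4, 26.1 and 52.2 scaled reads in XX embryos, against 9.13, 8.20 and 10.4 in XY embryos, with 87.8% mau reads in XX embryos. Both were called by edgeR (adjusted p = 0.013 for Rab18 and 0.026 for CG34015) and were named after their values were seen.

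**Figure D4:**
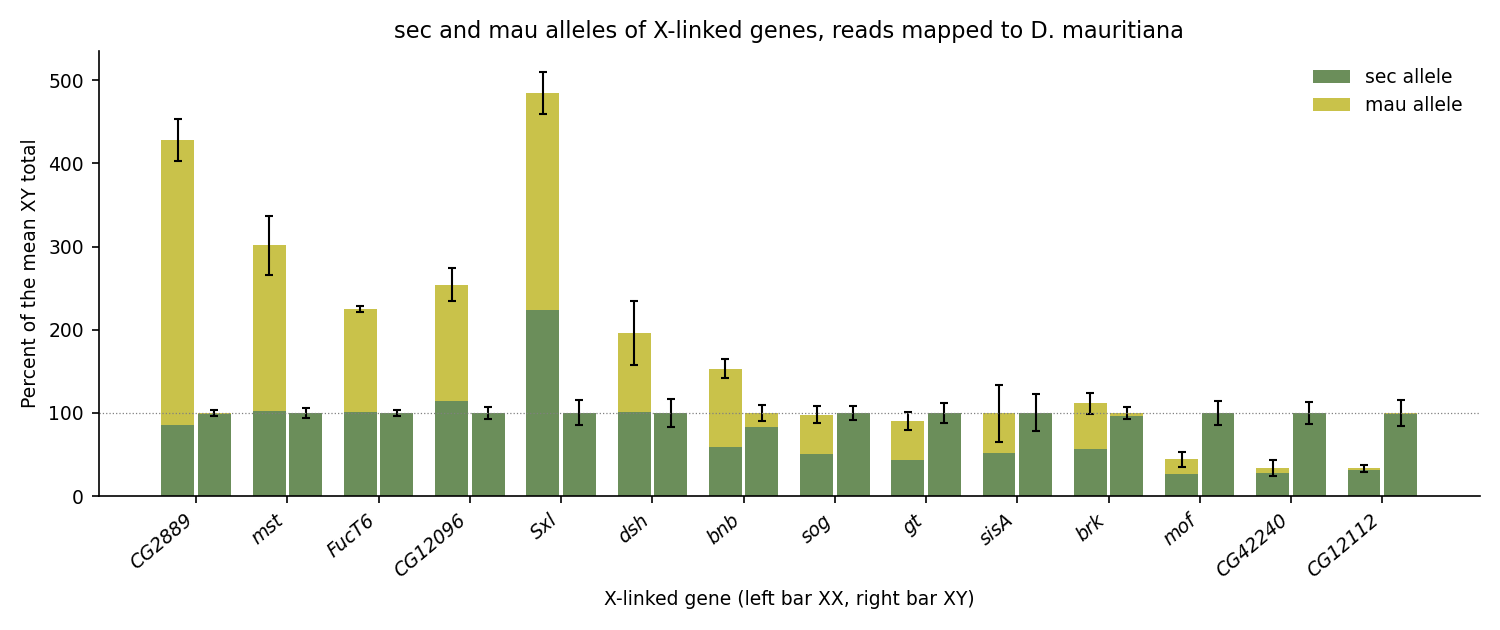
Stacked sec and mau allele levels of 14 X-linked genes, as a percent of each gene's mean XY total, in reads mapped to D. mauritiana, with the XX bar left of the XY bar and error bars for the SD of the total (n = 3). At FucT6 and CG12096 the sec allele is near level between the sexes and the mau allele is added, at sog, gt and sisA the XX total is level and split between alleles, and at mof, CG42240 and CG12112 the XX bar is shorter. At bnb, 3745, 4270 and 4567 scaled reads were assigned to mau in XY embryos, which have no mau X. In reads mapped to D. sechellia these were 58.8, 59.4 and 38.1, so the allele split drawn for bnb is not exact.

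X-linked genes with more RNA in XY embryos differed in how much of the XX signal was mau. CG12112, listed on scaffold 35, was the 1 X-linked gene that limma called higher in XY, with totals of 75.5, 107 and 97.8 scaled reads in XX embryos, against 303, 319 and 242 in XY embryos (-1.62 ± 0.18, adjusted p = 0.034). The mau allele of CG12112 had 4.19, 4.60 and 3.91 scaled reads in the XX embryos, so nearly all of its reads in both sexes were sec, and the sec allele differed by -1.68 on the log2 scale. CG42240 differed in the same direction, with totals of 288, 180 and 181 scaled reads in XX embryos, against 669, 602 and 737 in XY embryos (-1.66 ± 0.21, limma adjusted p = 0.0501, edgeR adjusted p = 0.0037). Most of its XX reads were sec, but the mau allele had 41.9, 15.3 and 37.8 scaled reads, a larger share than at CG12112. At mof the alleles were nearer to each other in XX embryos. Its sec allele had 36.4, 39.9 and 59.97 scaled reads in XX embryos, against 148, 202 and 175 in XY embryos, and its mau allele 35.0, 21.5 and 30.0 in XX embryos. The other X-linked genes that edgeR called higher in XY were CG4880, CG7326 and CG7536, named after their values were seen.

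mof was also the 1 gene of the X-linked maternal list that edgeR called lower in XX. All 18 genes of this list were in the table and 15 were tested. limma called 0, edgeR called 1 higher in XX and 1 lower, and DESeq2 3 higher and 1 lower. Of all 848 X-linked genes, limma called 6 higher in XX and 1 lower, edgeR 56 and 6, and DESeq2 112 and 8. Of the 15 genes, 5 had an unadjusted p under 0.05 with more RNA in XX and 1 (mof) with less, against 278 and 28 of all 848 X-linked genes, and the median log2 difference was 0.18, against 0.28 for all of them. dsh, which relays Wnt signals in the cytoplasm, had totals of 429, 540 and 364 scaled reads in XX embryos, against 192, 276 and 221 in XY embryos (0.95 ± 0.20, edgeR adjusted p = 0.024, limma adjusted p = 0.12). The sec allele of dsh differed by 0.02 on the log2 scale, and the mau allele added 161, 308 and 168 scaled reads in the XX embryos.

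Few autosomal genes stood apart. CG10089 on 3L had totals of 78.3, 138 and 83.4 scaled reads in XX embryos, against 14.2, 27.7 and 20.8 in XY embryos (2.21 ± 0.30, limma adjusted p = 0.054, edgeR adjusted p = 0.0091). Nearly all CG10089 reads were of the maternal sec allele, with the mau allele at 0 to 1.73 scaled reads in the 6 embryos. CG6885, also on 3L, had 1727, 1699 and 1418 scaled reads in XX embryos, against 937, 722 and 718 in XY embryos (1.03 ± 0.16, edgeR adjusted p = 0.0065). The sexes did not overlap at either gene, and these were the 2 autosomal genes edgeR called higher in XX. The 7 it called higher in XY were msl-2, msl-3, CG34025, Mrp4, pes, CG34266 and the histone demethylase gene Kdm4A, at log2 differences such as -0.68 ± 0.15 for Kdm4A. Except for msl-2 and msl-3, these 9 genes were named after their values were seen.

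The same contrast was available in the other crosses, each from its own table and scaled apart for the pairs with D. simulans, so values are given side by side. Per the study's methods, the sex ratio of sim x mau embryos was determined from the RNA data themselves, so its contrasts, Sxl and msl-2 included, are not independent of the labels. The X-linked dosage value over all genes was 0.421 in sim x sec (3 XX and 3 XY embryos), 0.418 in sim x mau (4 and 2) and 0.431 in mau x sim (3 and 3), beside 0.371 in sec x mau. For mostly zygotic genes it was 0.632, 0.554 and 0.586, beside 0.510. Sxl was higher in XX by 1.61 in sim x sec, 1.72 in sim x mau and 1.83 in mau x sim on the log2 scale (limma adjusted p = 0.0027, 0.0014 and 0.0025). msl-2 had 423 to 573 scaled reads in XX embryos and 1414 to 1431 in XY embryos of sim x sec, 522 to 634 and 1486 to 1499 in sim x mau, and 421 to 441 and 1390 to 1509 in mau x sim. The sexes did not overlap at Sxl or msl-2 in any of these crosses.

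Of the 71 genes that edgeR called in sec x mau, 62 of 67 tested in sim x sec, 67 of 68 in sim x mau and 63 of 68 in mau x sim differed in the same direction, and 22, 27 and 37 passed limma there. Most of the 71 were X-linked, 56 of them higher in XX, and 80.4% of all 848 X-linked genes were higher in XX in sec x mau. X-linked genes as a group were higher in XX in these crosses too. The share of all X-linked genes with the same direction there was not computed, so these counts do not show agreement gene by gene. Of the 7 genes that limma called in sec x mau, 6 were tested in each of these crosses, and 4, 5 and 6 differed in the same direction, with 2, 3 and 2 called. Among all genes tested, most of them autosomal, limma called 2.62% in sim x sec, 2.43% in sim x mau and 5.89% in mau x sim in either direction. These crosses share species and lines with sec x mau but no embryos. Some genes had their larger differences in the crosses with a D. mauritiana father. CG2889 was 3.26 higher in XX on the log2 scale in sim x mau, where XX embryos also have a paternal mau X. The same difference was 0.59 in sim x sec, against 0.20 for CG2889 in mau x sim. Rab18 differed by 2.41 in sim x mau and -0.32 in mau x sim, and CG34015 by 1.95 in sim x mau, 0.01 in mau x sim and 0.16 in sim x sec. CG42240 was lower in XX in all of them (-1.37 in sim x sec, -1.82 in sim x mau and -0.96 in mau x sim), whereas mof was at -0.779, -0.998 and 0.381 and CG12112 at 0.29, 0.32 and -0.48. In the same order of crosses, FucT6 was at 0.40, 0.62 and 0.77, beside 1.10 in sec x mau. CG12096 was at -0.04, 0.70 and 0.39, beside 1.14 in sec x mau. Differences between these crosses were not tested.

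The reciprocal cross mau x sec, in the same table, could not serve as a check by sex, because its libraries went against their labels. In the libraries labelled XX of mau x sec the paternal share of X-linked reads was 1.08, 11.98 and 20.8%, and in those labelled XY 0.798, 20.8 and 21.2%. Sxl had 487, 451 and 2069 scaled reads in the libraries labelled XX and 454, 1810 and 1721 in those labelled XY, and msl-2 had 1587, 1443 and 508 in the first group and 1765, 454 and 385 in the second. By paternal X reads, Sxl and msl-2 together, 4 of these 6 libraries did not match the sex in their label, 1 of them with an intermediate paternal share. The labels were kept and no library was moved. With these labels the limma interaction term called 5 genes (0.0921% of 5431). Such calls cannot show that the sex difference differed between the crosses, because the labels of mau x sec do not separate the sexes. As labelled, the dosage value of mau x sec was -0.108 over all X-linked genes.

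**Figure D5:**
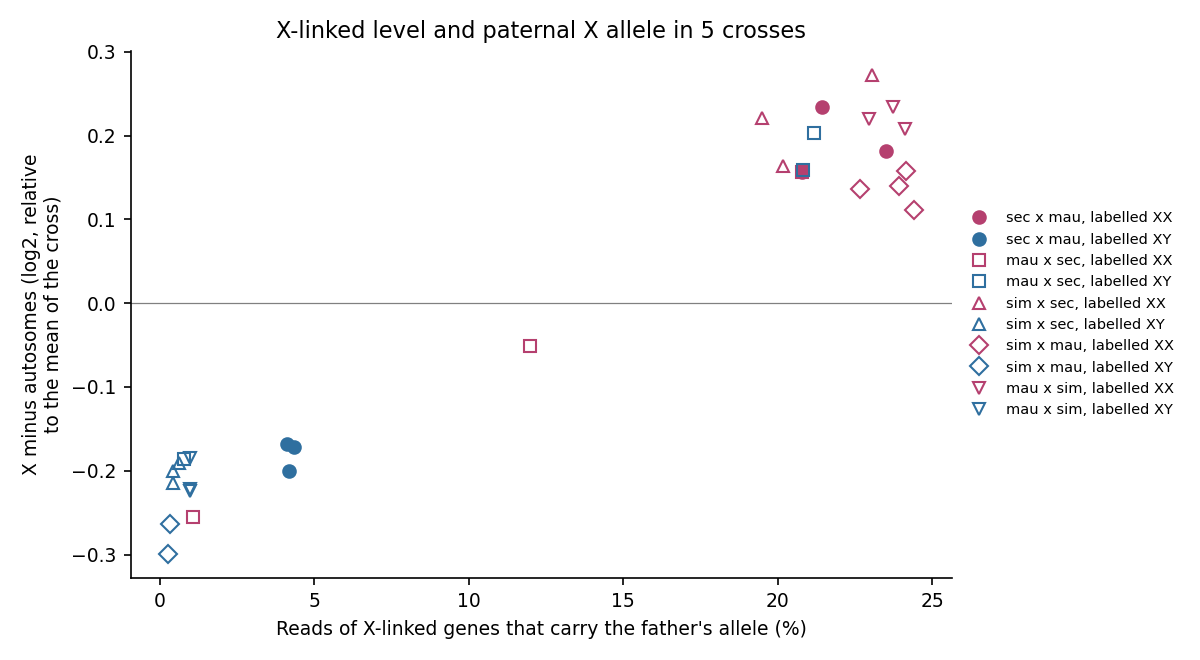
Paternal share of X-linked reads (percent, horizontal axis) against the X-linked level relative to autosomes (log2, vertical axis) for each late stage 5 embryo of the 5 crosses, coloured by labelled sex. In sec x mau the XX embryos lie at 20.8 to 23.5% and 0.156 to 0.234 and the XY embryos at 4.13 to 4.35% and -0.201 to -0.168, while the libraries of mau x sec lie on both sides under each label.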

How the data were processed

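Single late stage 5 embryos were used for poly(A)-selected, unstranded mRNA-Seq by the authors, who trimmed reads with Cutadapt 1.7.1, aligned them with TopHat 2.0.13 to D. sechellia r1.3 and to a D. mauritiana genome updated with the line's variants, and called variants with GATK. The deposited signal is the number of reads assigned to an allele at the variant sites of a gene, scaled by upper quantile normalization over the samples of the species pair. Values of an embryo were whole multiples of a step (100% within 0.01 of a whole read), and the whole reads recovered this way were the input of the count tests only.

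Totals were the sec plus mau values of reads mapped to D. sechellia. Genes with a mean total of at least 10 were tested by limma 3.58.1 (R 4.3.3) on log2(total + 1), two-sided, with Benjamini-Hochberg adjustment over 5431 genes at 0.05. A fold change on this scale understates the change of low genes. The alternatives were edgeR 4.0.16 and DESeq2 1.42.0 on recovered reads, limma with a trend, reads mapped to D. mauritiana, other minimums, pseudocounts and scalings, a joint fit with mau x sec, and leaving out each embryo. The scripts were tested on simulated data. Dosage values used an exact permutation test over embryos. Replicates are separate embryos, so the spread is biological and technical together. Genes with few variant sites have few reads, levels are not per length and were not compared between genes, and genes overlapping on opposite strands cannot be told apart. X linkage is the chromosome of the D. melanogaster ortholog in the table.

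Named genes were all members of the lists, the genes past the limma threshold without overlap between sexes (the 12 X-linked genes with the largest differences in favour of XX, and the 6 X-linked genes in favour of XY and 6 autosomal genes in each direction at most), and the 4 mostly zygotic X-linked genes with a mean total of 50 or more and the smallest difference. The members, lists and tests were chosen with earlier results of these data known.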

Additional observations from a re-analysis of the deposited data

Results flagged for a closer look

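In mau x sec, where the mother is D. mauritiana, 4 of 6 libraries went against their labelled sex, so each difference between the crosses below compares sec x mau embryos with libraries labelled XX or XY. The limma interaction term over both crosses called 5 genes (0.0921% of 5431), with 508 at an unadjusted p under 0.05. The log2 difference, XX minus XY, in sec x mau less that in mau x sec was 4.69 for CG8565, 2.75 for Tet, 2.48 for CG10089, 2.05 for CG2889 and 1.56 for FucT6. Tet, which encodes a methyl-nucleotide dioxygenase and lies on 3L, had 11.2, 10.7 and 19.6 scaled reads in XX and 8.11, 6.15 and 6.92 in XY embryos of sec x mau, against 1.82, 1.35 and 2.47 in libraries labelled XX and 6.93, 9.52 and 13.7 in libraries labelled XY of mau x sec. CG10089 had 458 to 642 scaled reads in the libraries labelled XX and 604 to 696 in those labelled XY of mau x sec, above all sec x mau embryos. CG2889 and CG8565 likewise differed little between the labels in mau x sec, at 188 to 211 and 192 to 222 scaled reads for CG2889 and 43.2 to 58.4 and 43.0 to 61.2 for CG8565. The X-linked dosage value over all genes differed by 0.479 between the crosses (permutation of the cross labels within sex, p = 0.03 over 400 permutations), that of mostly zygotic genes by 0.724 (p = 0.075) and that of mainly maternal genes by 0.653 (p = 0.05). Because 4 of 6 mau x sec libraries went against their label, the labelled contrast there was not one of XX with XY embryos. These calls and p-values therefore cannot show that the sex difference differed between the crosses. The part of the labels of mau x sec in these differences was not tested.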

How the results depend on the processing

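By limma, 6 X-linked genes were higher in XX and 1 higher in XY, and 0 autosomal genes in either direction. In that order, the 4 counts were 8, 1, 0 and 1 in reads mapped to D. mauritiana, 5, 0, 1 and 2 with no minimum, 41, 6, 3 and 4 with a minimum of 50, 9, 2, 0 and 1 with a pseudocount of 0.5, 13, 2, 1 and 1 with a pseudocount of 5, and 6, 1, 0 and 0 with TMM. They were 16, 2, 1 and 1 after centring each embryo on the autosomal median, 46, 7, 2 and 7 with a limma trend, 56, 6, 2 and 7 by edgeR, 112, 8, 9 and 12 by DESeq2, and 13, 0, 1 and 0 in the joint fit with mau x sec, whose labels go against the data. Leaving out each embryo gave 3 to 5, 0 to 1, 0 and 0 to 3. The cause of these shifts was not tested. Of the 7 limma calls, between 3 and 4 were kept without 1 embryo. The joint fit took Sxl to an adjusted p of 0.21. The 5 genes called by the interaction term, with the labels of mau x sec kept, became 9 in reads mapped to D. mauritiana. Their number was 8 with centring, 8 with TMM, 9 by edgeR and 32 by DESeq2, and 2 to 24 without each embryo. The dosage value kept its sign in all alternatives, at 0.212 (ratio of summed totals) to 0.407 over all genes, 0.372 to 0.604 for mostly zygotic, 0.387 to 0.521 for mainly maternal genes and -0.426 to -0.197 for the sec allele. No call of a named gene changed sign. No paired analysis was possible because XX embryos are numbered 4 to 6 and XY embryos 1 to 3, so no replicate number is shared. With 3 embryos a sex, exact tests cannot go below p = 0.1, and the reads at variant sites limit genes with few of them.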
